A study of Mus musculus with 19 samples.

Results

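Granulocytic transcripts were compared between 2 populations sorted from the bone marrow of cytokine-treated REP mice, the libraries labelled inflamed CCR1 (4 libraries, replicates 1 to 4) and those labelled inflamed CCR1/2 (3 libraries, replicates 2 to 4). These are 7 of the 19 libraries analysed. REP mice carry differently coloured fluorescent reporters for chemokine receptors, CCR1 and CCR2 among them, and all mice were female and 8 to 12 weeks old. For 7 days before sorting, an osmotic pump under the skin of the mice of both groups released 15 ng of IL-3, 16 ng of IL-6 and 15 ng of GM-CSF an hour together with IFN-α. The monocyte gate of the study was CD11b+ Ly6C++ Ly6G- SiglecF-, with CCR1/2+ve monocytes carrying both the CCR1 and the CCR2 reporter. All libraries have monocytes as their cell type label. The study's methods do not describe a population sorted for CCR1 alone, so the gate behind the CCR1-labelled libraries is not known. Replicates are not said to be separate animals, so p-values measure the spread between these libraries only.

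The members are 104 granulocytic genes in 8 lists: primary, specific and gelatinase granule proteins, cytosolic S100, stefin and WAP proteins, surface receptors, mediators, transcription factors, and subunits of the NADPH oxidase. Of these, 99 have counts in the table and 96 passed the filter on low counts, while Ctsg, Olfm4, Ltb4r1, Acod1 and Cebpe were not analysed here. Levels are given in CPM, the read count scaled to library size with TMM factors. A gene was called shared when it reached at least 10 CPM in all 7 libraries, and lacked when it reached 10 CPM in every CCR1-labelled library and stayed under 1 CPM in every CCR1/2+ve library. Genes at 10 CPM or more in all CCR1-labelled libraries that met neither rule were called intermediate.

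Granulocytes make their granule proteins in sequence as they mature. Promyelocytes fill the primary granules with myeloperoxidase and serine proteases, myelocytes then fill the specific granules with lactoferrin, cathelicidin and related proteins, and later cells fill the gelatinase granules and put chemokine and formyl peptide receptors on their surface. Transcription factors of the C/EBP family, PU.1 and GFI1 are known regulators of this programme, and monocytes share PU.1, the NADPH oxidase and many receptors with granulocytes.

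The CCR1/2+ve cells shared 52 of the 99 measured granulocytic genes with the CCR1-labelled cells, and lacked 4, Orm1, Mrgpra2a, Mrgpra2b and Gfi1. A further 13 were intermediate, and 10 reached 10 CPM in every CCR1/2+ve library but not in every CCR1-labelled library. The other 20 reached 10 CPM in every library of neither group and were called low in both, though single libraries could pass this level. Over all 18652 genes tested, 31.4% were shared, 0.354% lacked and 3.80% intermediate. A further 4.25% reached 10 CPM in every CCR1/2+ve library but not in every CCR1-labelled library. Of the 52 shared genes, 27 were upregulated in CCR1-labelled cells, 8 were downregulated and 17 were not called. Among the 27 shared genes that were upregulated, the CCR1/2+ve level ranged from 0.249% (Camp) to 45.0% (Chil3) of the CCR1-labelled level, with a median of 9.06%. In the same comparison, all 493 genes that were shared and upregulated had a median of 37.9%. The classes rest on absolute levels, so a shared gene can have a lower ratio than a lacked one. Mrgpra2b was lacked at 0.592% of the CCR1-labelled level, above the ratio of Camp.

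By edgeR's quasi-likelihood test (adjusted p under 0.05, log2 fold change of 1 or more in either direction), 46 of the 96 tested granulocytic genes were upregulated in CCR1-labelled cells, 24 were downregulated and 26 were not called. Over all 18652 genes tested, 13.2% were upregulated and 14.6% downregulated, 27.7% in either direction. The granulocytic shares were 47.9% up and 25% down. At the adjusted p alone, 50 were higher and 28 lower in CCR1-labelled cells, against 20.2% and 23.0% of all genes. The median log2 fold change of the granulocytic genes was 1.20, against 0.00 for all genes. The levels of the 2 groups did not overlap for 80 of the 96 genes, against 47.4% of all genes tested. Of the 69 granulocytic genes at 10 CPM or more in all CCR1-labelled libraries, 75.4% were shared and 5.80% lacked, against 88.3% and 0.994% of the 6637 genes that met this level.

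**Figure D1:**
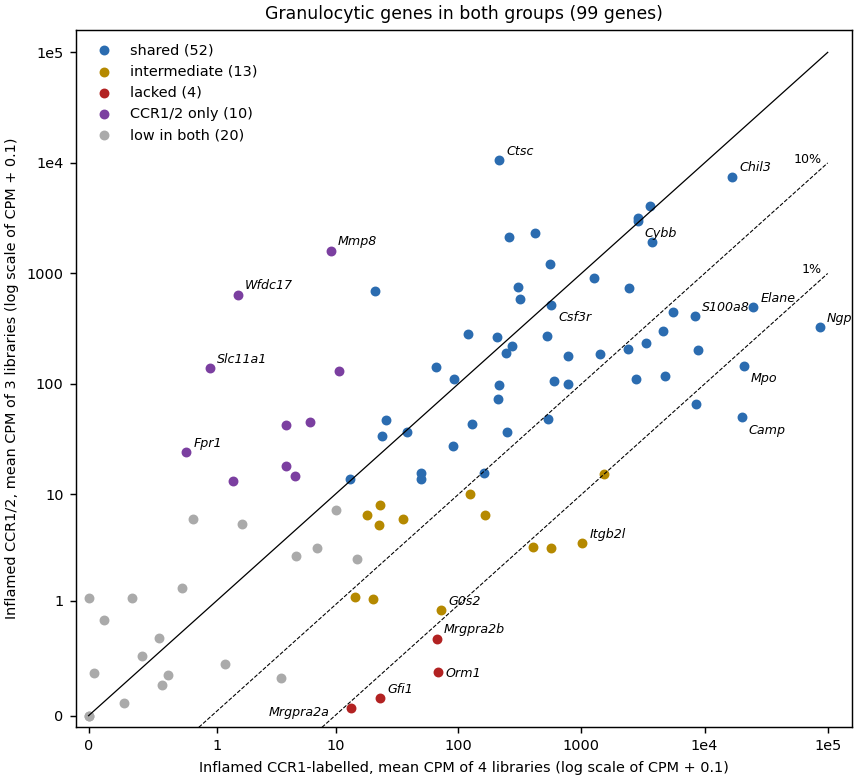
Mean level of each of the 99 granulocytic genes in CCR1-labelled cells (x axis, 4 libraries) and CCR1/2+ve cells (y axis, 3 libraries), in CPM on a log scale of CPM + 0.1, coloured by class. The solid line marks equal levels and the dashed lines 10% and 1% of the CCR1-labelled level. Camp, Ngp and Mpo lie below the 1% line, Cybb and Csf3r lie near the line of equal levels, and Ctsc and Mmp8 lie above it.

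The 7 libraries held 22268658 to 24444993 reads on genes. The first principal component (51.1% of the variance) separated the groups, and CCR1/2+ve replicate 2 stood apart from replicates 3 and 4 along the second (13.3%). That replicate had the highest of the 3 CCR1/2+ve levels for 9 of 9 primary granule genes, 8 of 17 specific granule genes and 48 of 96 granulocytic genes in all. The same share over all genes tested was not counted, so these counts have nothing to be set against. The 10 most abundant genes took 19.2 to 22.2% of the reads in CCR1-labelled libraries and 11.2 to 12.0% in CCR1/2+ve libraries. Granulocytic genes together took 21.6 to 24.8% and 4.09 to 4.90% of the reads.

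The label was checked against Ccr1 and Ccr2, which encode the receptors that the library labels name. Ccr1 (ENSMUSG00000025804, chr9:123962124-123968692) measured 37.2, 42.8, 32.0 and 40.1 CPM in the CCR1-labelled libraries and 421, 221 and 288 CPM in the CCR1/2+ve libraries. It was present in every CCR1-labelled library but lower there than in every CCR1/2+ve library (log2 fold change −3.02, SE 0.20, adjusted p = 6.23e-07). Ccr2 (ENSMUSG00000049103, chr9:124101950-124113557) measured 4.05, 9.59, 5.27 and 4.38 CPM against 1355, 1275 and 1092 CPM (log2 fold change −7.73, SE 0.35, adjusted p = 1.79e-06). Of 20 monocyte core genes, 18 were downregulated in CCR1-labelled cells and 0 upregulated, with a median log2 fold change of −5.96. Csf1r, the receptor for the growth factor M-CSF, averaged 17.7 CPM against 1080 CPM, and Fn1, fibronectin, 3.52 against 2814 CPM. Ly6c2, which encodes the antigen of the Ly6C gate, was 1421 against 2044 CPM (log2 fold change −0.52) and not called. Lyz2, lysozyme of both monocytes and granulocytes, was 8278 CPM in CCR1-labelled cells and 35864 CPM in CCR1/2+ve cells. The data thus go against the monocyte label of the CCR1-labelled libraries, and these cells are called by their label only. In bulk libraries, fewer cells of a type and less RNA per cell cannot be told apart.

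Promoter sequences are shown for 4 members, 3 shared granule genes with some of the highest levels in CCR1-labelled cells and 1 lacked gene, so that the sequence before the start of a shared and of a lacked gene can be read. Each is the RefSeq sequence upstream of the annotated start (GRCm38.p6), read along the gene's strand, 5′ to 3′. Capitals mark matches, on either strand, to the C/EBP motif TTNNGCAA or the PU.1 motif GAGGAA.

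Elane, chr10:79886062-79886246, plus strand: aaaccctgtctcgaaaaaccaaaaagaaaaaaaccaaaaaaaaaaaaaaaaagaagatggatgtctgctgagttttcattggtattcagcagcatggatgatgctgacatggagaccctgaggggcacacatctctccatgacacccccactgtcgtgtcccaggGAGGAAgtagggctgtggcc

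Ngp, chr9:110419558-110419746, plus strand: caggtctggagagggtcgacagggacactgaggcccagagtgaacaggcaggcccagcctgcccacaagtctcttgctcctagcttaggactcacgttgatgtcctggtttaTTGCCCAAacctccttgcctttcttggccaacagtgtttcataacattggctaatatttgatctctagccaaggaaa

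Ltf, chr9:111019042-111019270, plus strand: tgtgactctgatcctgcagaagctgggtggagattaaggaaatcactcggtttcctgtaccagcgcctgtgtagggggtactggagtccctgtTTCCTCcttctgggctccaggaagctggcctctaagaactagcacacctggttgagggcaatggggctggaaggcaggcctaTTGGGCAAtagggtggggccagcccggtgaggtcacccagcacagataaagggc

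Mrgpra2a, chr7:47452165-47452414, minus strand: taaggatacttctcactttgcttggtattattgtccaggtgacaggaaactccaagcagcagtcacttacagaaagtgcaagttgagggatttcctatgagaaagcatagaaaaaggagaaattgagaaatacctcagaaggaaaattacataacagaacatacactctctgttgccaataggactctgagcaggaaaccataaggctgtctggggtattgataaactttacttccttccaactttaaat

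The Elane window held 1 PU.1 match, the Ngp window 1 C/EBP match, the Ltf window 1 of each and the Mrgpra2a window neither. These windows are shorter than the full promoters counted next, in which Mrgpra2a has 1 PU.1 match and Ngp 2 C/EBP matches. A RefSeq promoter (250 bases before to 50 after the start) was found for 80 of the 99 members. The C/EBP motif was in 11 of 39 promoters of upregulated members (28.2%) and in 6 of 20 of downregulated members (30%), against 10.8% of all 27025 promoters. The PU.1 motif was in 22 of 39 (56.4%) and 11 of 20 (55%), against 28.3% of all promoters. Both motifs were therefore found at a like share in members of either direction.

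Of the 9 primary granule genes measured, 8 were upregulated in CCR1-labelled cells and 1, Ctsc, was downregulated, with a median log2 fold change of 4.72. Mpo (ENSMUSG00000009350, chr11:87793581-87804413), myeloperoxidase of the primary granule, measured 19961, 22688, 22054 and 18227 CPM in the CCR1-labelled libraries and 198, 122 and 114 CPM in the CCR1/2+ve libraries. The transcript was shared, but its CCR1/2+ve level was 0.699% of the CCR1-labelled level (log2 fold change 7.17, SE 0.24, adjusted p = 1.32e-08). Exons of other genes overlap 15% of its exonic bases. Elane, neutrophil elastase, measured 25801, 25505, 26200 and 22051 CPM against 697, 390 and 392 CPM, or 1.98% of the CCR1-labelled level. Prtn3, proteinase 3, lies next to Elane on chromosome 10 and measured 3541, 3719, 3381 and 2666 CPM against 253, 240 and 215 CPM, or 7.10%. The 3 serine protease and peroxidase genes were thus shared at 0.699 to 7.10% of the CCR1-labelled level, with no overlap between groups.

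Prss57, a serine protease of the azurophil granule, was intermediate, at 387, 412, 423 and 399 CPM against 3.97, 2.90 and 2.81 CPM (log2 fold change 6.97, SE 0.15, adjusted p = 9.62e-13). Ms4a3, a marker of granulocyte and monocyte progenitors, was also intermediate, at 1595, 1560, 1570 and 1432 CPM against 29.8, 9.15 and 7.20 CPM. Its CCR1/2+ve spread was wide, with replicate 2 well above the others. The cystatin gene Cst7 was intermediate at 166 ± 14.8 CPM (SD, n = 4) against 6.37 ± 3.47 CPM (SD, n = 3). Of Prss57, 40.7% of the exonic bases overlap exons of other genes.

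Srgn, the serglycin core protein that binds granule proteases, was shared at 819, 789, 808 and 722 CPM against 192, 182 and 170 CPM, or 23.1%. Serpinb1a, an inhibitor of elastase and proteinase 3, was shared at 8.73% of the CCR1-labelled level. Ctsc (chr7:88278085-88310888), the dipeptidyl peptidase that activates the granule serine proteases, moved the other way from the proteases. It measured 148, 346, 187 and 176 CPM in CCR1-labelled libraries and 11066, 11047 and 9606 CPM in CCR1/2+ve libraries (log2 fold change −5.62, SE 0.35, adjusted p = 1.87e-05). Inflamed CCR2+ve monocytes, given here side by side without a test, held Ctsc at 8965 CPM (range 8075 to 10142).

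**Figure D2:**
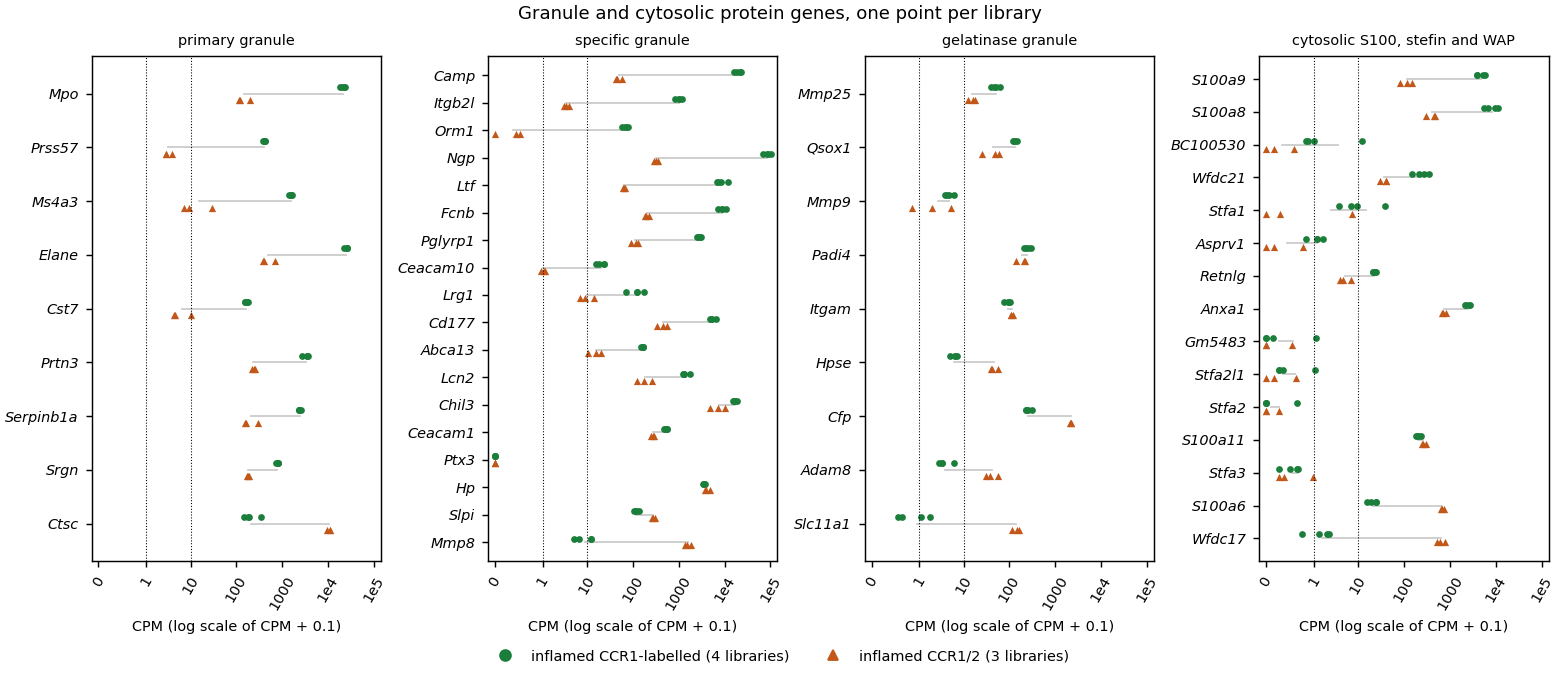
Level of each granule and cytosolic protein gene in every library, in CPM on a log scale of CPM + 0.1, with circles for the 4 CCR1-labelled libraries and triangles for the 3 CCR1/2+ve libraries. Grey lines join the group means and dotted lines mark 1 and 10 CPM. Genes are ordered by log2 fold change within a list, from Mpo down to Ctsc for the primary granule, and the groups are separate for all 9 primary granule genes.

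Of 17 specific granule genes tested, 13 were upregulated, 2 (Slpi and Mmp8) were downregulated and 2 (Hp and Ceacam1) were not called, with a median log2 fold change of 3.62. Ngp (chr9:110419747-110423012), neutrophilic granule protein, was the most abundant member per length in CCR1-labelled cells, at 70406 CPM per kilobase of exon. It measured 86124, 69730, 87510 and 100780 CPM against 293, 328 and 363 CPM (log2 fold change 8.03, SE 0.17, adjusted p = 2.43e-12). Camp, the cathelicidin antimicrobial peptide, measured 21649, 15748, 19155 and 23310 CPM against 45.1, 44.3 and 59.8 CPM (log2 fold change 8.65, SE 0.22, adjusted p = 2.80e-10). Ltf, lactoferrin, measured 7271, 6798, 8274 and 11749 CPM against 60.7, 69.0 and 66.2 CPM (log2 fold change 7.02, SE 0.24, adjusted p = 1.22e-08). All 3 were shared by the level rule, at 0.249 to 0.766% of the CCR1-labelled level. In resting CCR1/2+ve monocytes, without a test, Ltf averaged 3.21 CPM, Ngp 26.1 CPM and Camp 16.2 CPM.

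Fcnb, ficolin B, which binds microbial sugars, measured 8604, 7124, 8649 and 10747 CPM against 189, 193 and 231 CPM, or 2.33%. Pglyrp1, a peptidoglycan recognition protein, measured 2943, 2482, 2670 and 3041 CPM against 90.4, 117 and 130 CPM, or 4.04%. Cd177, a neutrophil surface glycoprotein stored in specific granules, was shared at 8.19% and Lcn2, the siderophore-binding lipocalin, at 13.2%. Abca13, a large transporter, was shared at 9.62%. Chil3, a chitinase-like protein also made by monocytes and macrophages, came closest in level among the upregulated genes of the list, at 15436, 16332, 16497 and 18512 CPM against 10334, 7308 and 4880 CPM (log2 fold change 1.16, SE 0.22, adjusted p = 0.00353). Without CCR1/2+ve replicate 4 the log2 fold change was 0.93, under the fold cutoff. Chil3 was the most abundant member per length in CCR1/2+ve cells, at 4600 CPM per kilobase.

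Itgb2l, a β2-integrin-like chain of neutrophils, was intermediate and among the 5 upregulated genes of smallest p over all genes tested. It measured 1001, 841, 1026 and 1196 CPM against 3.97, 3.45 and 3.12 CPM (log2 fold change 8.18, SE 0.17, adjusted p = 8.25e-13). Orm1, the acute-phase protein orosomucoid, was lacked, at 70.2, 67.0, 59.5 and 78.4 CPM against 0.194, 0.250 and 0 CPM (log2 fold change 8.86, SE 0.36, adjusted p = 2.69e-09). Ceacam10 and Lrg1 were intermediate, at 5.10% and 8.10% of the CCR1-labelled level.

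Hp, haptoglobin, was shared and not called, at 3508, 3396, 3610 and 3787 CPM against 4736, 3883 and 3698 CPM (log2 fold change −0.20, 95% interval −0.37 to −0.02, adjusted p = 0.0949). Its ranges overlapped. Ceacam1 was 526 ± 35.2 CPM (SD, n = 4) against 273 ± 15.4 CPM (SD, n = 3), separate between the groups but under the fold cutoff at a log2 fold change of 0.94. Slpi, the leukocyte protease inhibitor that blocks elastase, was downregulated, at 119, 106, 117 and 137 CPM against 279, 309 and 265 CPM (log2 fold change −1.25, SE 0.11, adjusted p = 4.28e-07). Mmp8 (chr9:7558456-7568485), neutrophil collagenase, was the member of the specific granule list with the reverse pattern to Ltf, at 6.87, 12.2, 5.18 and 12.2 CPM against 1895, 1513 and 1411 CPM (log2 fold change −7.46, SE 0.38, adjusted p = 5.01e-06). Ptx3 had no read in the 7 libraries.

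Of the 9 gelatinase granule genes, 2 were upregulated, 4 downregulated and 3 not called, with a median log2 fold change of −0.29. Mmp25, a membrane-bound matrix metalloproteinase, measured 39.6, 45.7, 51.7 and 63.7 CPM against 17.6, 12.8 and 15.9 CPM, or 30.9%. Qsox1, a sulfhydryl oxidase, measured 120, 124, 135 and 143 CPM against 25.6, 47.5 and 58.4 CPM, or 33.6%. Both were shared. Mmp9, gelatinase B, after which the granule is named, was low in both groups at 4.72 ± 0.961 CPM (SD, n = 4) and 2.68 ± 2.44 CPM (SD, n = 3), and not called. Without CCR1/2+ve replicate 4, the highest of the 3 at 5.40 CPM, it was upregulated (log2 fold change 1.84, adjusted p = 0.00272).

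The members that were higher in CCR1/2+ve cells were Cfp, Slc11a1, Hpse and Adam8. Cfp, properdin of the alternative complement pathway, measured 236, 228, 259 and 305 CPM against 2165, 2113 and 2146 CPM (log2 fold change −3.06, SE 0.10, adjusted p = 4.05e-11). Slc11a1, the phagosomal metal transporter NRAMP1, measured 0.273, 1.09, 0.370 and 1.74 CPM against 113, 159 and 146 CPM (log2 fold change −7.33, SE 0.51, adjusted p = 2.69e-05). Hpse, heparanase, averaged 6.20 against 45.5 CPM, and Adam8, a membrane protease, 3.88 against 42.2 CPM. Padi4, which citrullinates histones, was shared and overlapped between groups at 246 ± 36.1 CPM (SD, n = 4) against 190 ± 43.4 CPM (SD, n = 3) (log2 fold change 0.36, 95% interval 0.02 to 0.69, adjusted p = 0.119). Itgam, the CD11b chain used in the gate, was 91.8 against 112 CPM and not called, and 68.7% of its exonic bases overlap other genes.

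Among the 14 cytosolic genes tested, 6 were upregulated, 2 downregulated and 6 not called, with a median log2 fold change of 1.91. S100a8, a calcium-binding subunit of calprotectin, measured 11316, 6868, 5524 and 9878 CPM against 466, 308 and 462 CPM (log2 fold change 4.35, SE 0.35, adjusted p = 7.06e-05). Its partner S100a9 measured 5822, 3945, 3955 and 5390 CPM against 154, 81.2 and 118 CPM (log2 fold change 5.35, SE 0.30, adjusted p = 3.90e-06). The pair was shared at 4.91% and 2.46% of the CCR1-labelled level. S100a6 moved the other way, at 24.6, 19.1, 15.8 and 24.1 CPM against 644, 676 and 758 CPM (log2 fold change −5.05, SE 0.17, adjusted p = 2.60e-10). S100a11 was 208 against 268 CPM (log2 fold change −0.37, 95% interval −0.60 to −0.13). The S100 genes thus fell into both directions, all 4 on chromosome 3.

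The neighbouring WAP genes on chromosome 11 also differed in direction. Wfdc21 was shared at 349, 216, 147 and 277 CPM against 40.3, 29.7 and 41.1 CPM, or 15%. Wfdc17 measured 2.05, 2.22, 0.508 and 1.32 CPM against 615, 525 and 786 CPM (log2 fold change −8.71, SE 0.44, adjusted p = 5.56e-06). Anxa1, annexin A1, was shared at 2590, 2108, 2279 and 2797 CPM against 827, 692 and 709 CPM, or 30.4%. Retnlg, a resistin-like protein of neutrophils, was intermediate at 23.9, 20.8, 21.4 and 25.2 CPM against 4.02, 4.65 and 7.11 CPM.

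The 6 stefin genes, cysteine protease inhibitors in a cluster on chromosome 16, were low in both groups, and of the 5 tested none was called. Their sequences are near-identical and only unique alignments were kept. Reads that match several of them were not counted, so their levels are uncertain and may be too low. Stfa1 measured 9.65, 7.10, 3.88 and 39.7 CPM against 0, 0.10 and 7.51 CPM, with CCR1-labelled replicate 4 and CCR1/2+ve replicate 4 above the others of their group. Without CCR1/2+ve replicate 4 it was upregulated (log2 fold change 8.10, adjusted p = 0.0331). BC100530 measured 0.637, 0.723, 1.02 and 12.0 CPM against 0.0485, 0 and 0.307 CPM, and was upregulated without CCR1-labelled replicate 4 (log2 fold change 2.62, adjusted p = 0.0177).

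Of 19 surface receptor genes tested, 8 were upregulated, 7 downregulated and 4 not called, with a median log2 fold change of 0.32. Adgrg3, an adhesion G protein-coupled receptor of granulocytes, was intermediate at 535, 515, 595 and 605 CPM against 4.22, 2.55 and 2.77 CPM (log2 fold change 7.47, SE 0.18, adjusted p = 1.80e-12). Mrgpra2a and Mrgpra2b are near-identical receptors for antimicrobial peptides on neutrophils. Reads that match both were not counted, so their levels are uncertain and may be too low. Mrgpra2a measured 16.1, 13.1, 11.1 and 13.6 CPM against 0.0485, 0 and 0 CPM, the single CCR1/2+ve read giving a ratio of 854 with an exact 95% counting interval of 153 to 33776. Mrgpra2b measured 78.6, 58.2, 57.4 and 72.5 CPM against 0.727, 0.150 and 0.307 CPM. Both were lacked by the CCR1/2+ve cells.

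Ly6g, the antigen that the monocyte gate excludes, was low but separate, at 15.1, 12.0, 13.1 and 17.5 CPM against 0.679, 1.10 and 1.45 CPM (log2 fold change 3.73, SE 0.27, adjusted p = 8.34e-08). Cxcr2, the receptor for neutrophil-attracting chemokines, measured 34.5, 27.4, 28.6 and 52.8 CPM against 10.4, 4.65 and 2.59 CPM. Both were intermediate, and Cxcr1 had no read. Trem3, an activating receptor, was shared at 12.7%, and Trem1, which amplifies inflammatory signals, at 30.6%. C5ar1, the receptor for complement C5a, was shared at 34.6%, at 198, 191, 210 and 249 CPM against 86.7, 69.7 and 63.7 CPM.

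Receptors for formyl peptides and fungal or damage ligands were higher in CCR1/2+ve cells. Fpr1 measured 0.682, 0.136, 0.647 and 0.612 CPM against 27.2, 18.6 and 26.0 CPM (log2 fold change −5.52, SE 0.32, adjusted p = 1.63e-08), and Fpr2 averaged 3.89 against 17.9 CPM. The C-type lectin receptors Clec4d and Clec4e averaged 1.39 and 10.7 CPM against 13.3 and 132 CPM. The Fc receptor Fcgr3 and the platelet-activating factor receptor Ptafr were downregulated as well, with log2 fold changes of −1.11 and −1.09. Unlike Fpr1, Fpr2, Clec4d and Clec4e, both were shared.

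Csf3r, the receptor for G-CSF, the main growth factor of neutrophils, was shared at 527, 545, 608 and 580 CPM against 549, 517 and 490 CPM. The groups overlapped, and the log2 fold change was 0.12 (95% interval −0.05 to 0.29, adjusted p = 0.283). Siglece, Fcgr4 and the decoy receptor Il1r2 were shared and not called as well. Il1r2 measured 213 CPM in CCR1/2+ve replicate 2 and 43.3 and 39.9 CPM in the others, against 187 to 244 CPM in CCR1-labelled libraries. Without that CCR1/2+ve library it was upregulated (log2 fold change 2.34, adjusted p = 6.29e-10).

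**Figure D3:**
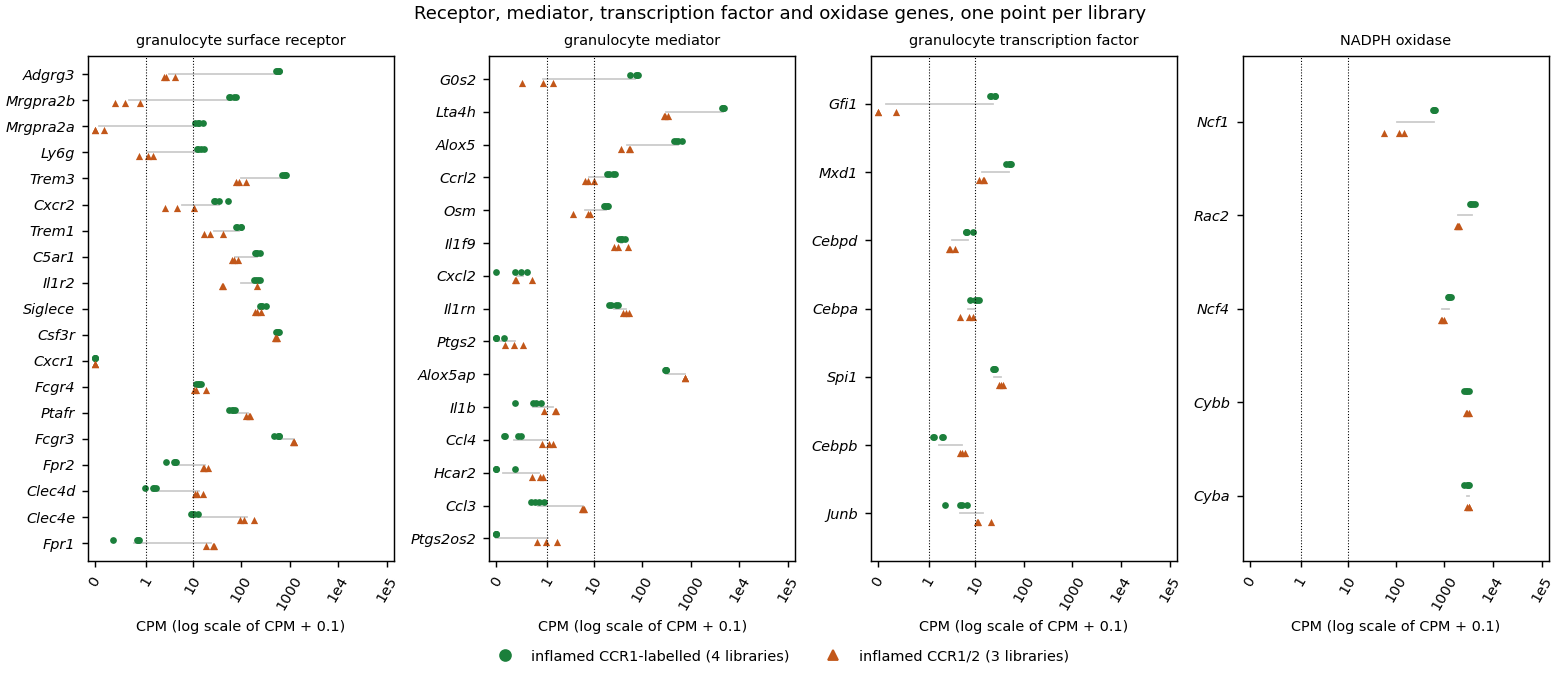
Levels of the receptor, mediator, transcription factor and NADPH oxidase genes reported here in every library, in CPM on a log scale of CPM + 0.1, with circles for the 4 CCR1-labelled and triangles for the 3 CCR1/2+ve libraries. Grey lines join group means and dotted lines mark 1 and 10 CPM. Adgrg3 and Gfi1 are far apart with CCR1-labelled cells higher, Fpr1 is far apart with CCR1/2+ve cells higher, and Csf3r, Cybb and Cyba lie together.

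Of 15 mediator genes tested, 5 were upregulated, 6 downregulated and 4 not called, with a median log2 fold change of −0.86. The leukotriene pathway was split. Alox5, 5-lipoxygenase, measured 485, 446, 557 and 645 CPM against 37.1, 52.4 and 55.5 CPM (log2 fold change 3.46, SE 0.19, adjusted p = 4.76e-08). Lta4h, which makes leukotriene B4, measured 4555, 4328, 4898 and 4604 CPM against 332, 289 and 285 CPM (log2 fold change 3.93, SE 0.10, adjusted p = 2.35e-12). Alox5ap, the protein that presents the substrate to 5-lipoxygenase, was lower in CCR1-labelled cells, at 313, 296, 313 and 312 CPM against 747, 754 and 760 CPM (log2 fold change −1.29, SE 0.08, adjusted p = 2.07e-08). All 3 genes were shared.

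G0s2, an inhibitor of the lipase ATGL, was intermediate at 80.6, 56.7, 75.4 and 77.6 CPM against 0.242, 0.800 and 1.36 CPM (log2 fold change 6.46, SE 0.41, adjusted p = 2.50e-06). The cytokine gene Osm and the chemerin-binding receptor gene Ccrl2 were intermediate at 36.1% and 34.9%. The inflammatory cytokine genes were low in both groups. Il1b averaged 0.472 against 1.33 CPM and Ccl3 0.607 against 5.92 CPM, both downregulated, and Cxcl2 0.171 against 0.245 CPM, not called. The call of Il1b (adjusted p = 0.023) was lost without CCR1/2+ve replicate 2 or 4 or CCR1-labelled replicate 1 (adjusted p = 0.0589, 0.0767 and 0.0541). Ptgs2os2 had 0 reads in CCR1-labelled libraries and 1.65, 0.600 and 0.966 CPM in CCR1/2+ve libraries, at least 31.1-fold higher (floor of 3 reads over the group), and Hcar2, with 3 reads in the CCR1-labelled libraries, was 18.7-fold higher (exact 95% counting interval 5.98 to 94.6). Il1rn, the IL-1 receptor antagonist, was shared at 25.7 against 46.7 CPM and Il1f9 at 38.0 against 36.5 CPM, and neither was called.

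Of 7 transcription factor genes tested, 3 were upregulated, 2 downregulated and 2 not called. Gfi1 (chr5:107716657-107726036), a repressor needed for neutrophil differentiation, was the transcription factor that CCR1/2+ve cells lacked. It measured 25.9, 21, 25.7 and 19.8 CPM against 0, 0 and 0.132 CPM. With 2012 reads against 3, the ratio was 489 with an exact 95% counting interval of 167 to 2373 (adjusted p = 1.45e-09). Mxd1, a MYC antagonist of maturing granulocytes, was shared at 50.5, 42.6, 53.1 and 53.2 CPM against 14.1, 15.2 and 11.7 CPM, or 27.4%. Spi1, which encodes PU.1, was shared at 23.3, 24.1, 24.5 and 24.9 CPM against 30.9, 33.1 and 37.6 CPM (log2 fold change −0.49, 95% interval −0.74 to −0.24), separate between groups and under the fold cutoff.

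The C/EBP genes measured were low in both groups. Cebpa, active in granulocyte and monocyte progenitors, was 10.00 ± 1.65 CPM (SD, n = 4) against 7.09 ± 2.17 CPM (SD, n = 3) and not called. Cebpd was upregulated, at 9.01, 6.74, 6.33 and 6.26 CPM against 2.96, 2.75 and 3.78 CPM, and Cebpb downregulated, at 2.00, 2.12, 1.29 and 1.27 CPM against 4.75, 6.10 and 5.18 CPM. In resting CCR1/2+ve monocytes Cebpd averaged 149 CPM and Spi1 564 CPM, given here without a test. Other genes overlap 15% of the exonic bases of Cebpd and 20.7% of those of Cebpb. Junb, which was downregulated at 4.68 against 14.6 CPM (adjusted p = 0.00508), is a subunit of the AP-1 factor.

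All 6 subunit genes of the NADPH oxidase, the enzyme that makes superoxide in phagocytes, were shared, and 5 were not called. Cybb, the catalytic gp91phox subunit, measured 2789, 2570, 2873 and 3229 CPM against 2719, 3261 and 2950 CPM (log2 fold change −0.06, 95% interval −0.25 to 0.14). Cyba, its membrane partner, was 2887 against 3149 CPM (log2 fold change −0.13, 95% interval −0.30 to 0.05). Of the cytosolic subunits, Ncf4 and Rac2 had log2 fold changes of 0.47 and 0.97, both separate between the groups and under the fold cutoff. Rac2 passed it without CCR1-labelled replicate 1 or 2 or CCR1/2+ve replicate 3 (1.01 to 1.04). Ncf1 was the exception, at 595, 570, 638 and 599 CPM against 57.2, 118 and 145 CPM (log2 fold change 2.48, SE 0.33, adjusted p = 0.000791). The oxidase list took 1.02 to 1.17% of reads in CCR1-labelled and 0.870 to 0.892% in CCR1/2+ve libraries.

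Most of the shared genes were also found in inflamed CCR2+ve monocytes, which carry the CCR2 reporter without that of CCR1 (4 libraries). Of the 52 shared genes, 44 reached 10 CPM in every inflamed CCR2+ve library. This share was not counted for all 5863 shared genes, so the count is not read as a trait of granulocytic genes. Over those 5863 genes, the median ratio of the CCR1/2+ve to the CCR2+ve mean was 1.03. All 3 CCR1/2+ve libraries were above all 4 CCR2+ve libraries for 28 of the 52, and below all of them for 0, against 10.8% above among all 5863 shared genes. Of the 27 shared genes upregulated in CCR1-labelled cells, 17 were above, against 17.0% of the 493 such genes overall. The CCR1/2+ve mean was 0.812 to 7.31 times the CCR2+ve mean over the 27 (median 1.83). Over the 493 such genes the median was 1.06. These ratios are descriptions without a test.

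**Figure D4:**
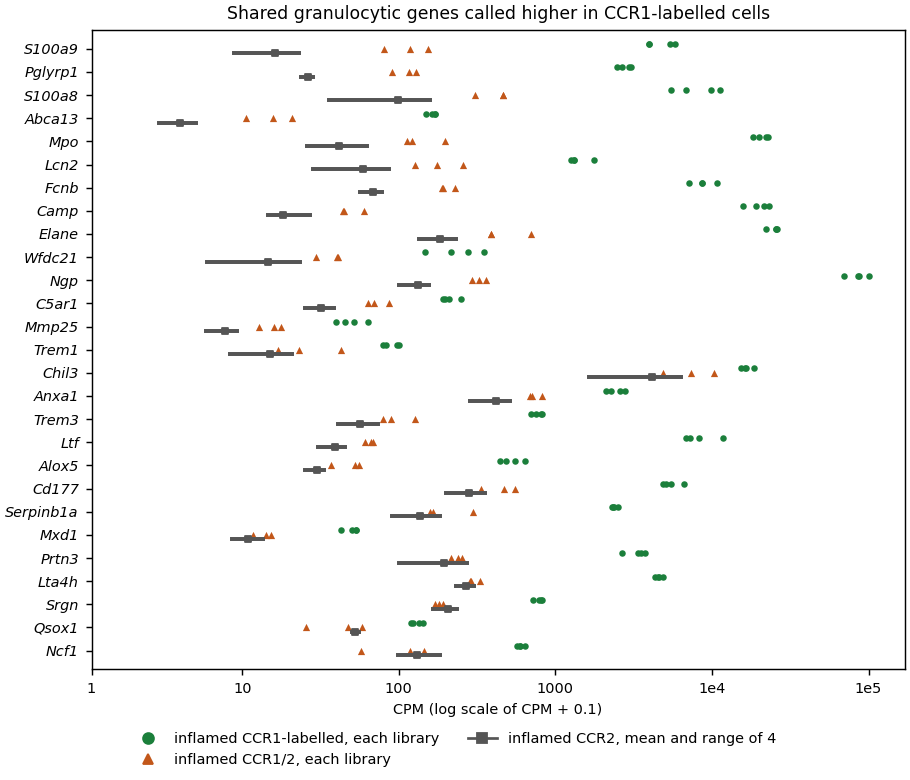
Levels of the 27 shared genes that were upregulated in CCR1-labelled cells, in CPM on a log scale of CPM + 0.1, with 1 point per CCR1-labelled and CCR1/2+ve library and, as a square and bar, the mean and range of the 4 inflamed CCR2+ve libraries. Genes are ordered by the ratio of the CCR1/2+ve to the CCR2+ve mean, and the CCR1/2+ve triangles lie to the right of the whole CCR2+ve range for 17 of the 27.

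S100a9 averaged 117 CPM in CCR1/2+ve and 16.1 CPM (range 8.82 to 23.2) in CCR2+ve monocytes under inflammation. Mpo averaged 145 against 41.9 CPM, Camp 49.7 against 18.3 CPM and Elane 493 against 184 CPM. In the same genes the CCR1-labelled means were 4778, 20732, 19966 and 24889 CPM. The CCR1/2+ve levels thus lay between the others for these 4 genes, and nearer to CCR2+ve monocytes. Of the 27 shared and upregulated genes, 24 had a higher mean in CCR1/2+ve than in CCR2+ve monocytes. Srgn, Qsox1 and Ncf1 had a lower one. Gfi1 had no read in the inflamed CCR2+ve libraries and Mrgpra2a none either.

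Levels in resting CCR1/2+ve monocytes (4 libraries, mice without cytokine pumps) are set beside the inflamed ones. Mpo averaged 1827 ± 865 CPM (SD, n = 4) at rest and 145 ± 46.0 CPM (SD, n = 3) under inflammation, and Elane 1747 and 493 CPM. Ngp averaged 26.1 and 328 CPM, and Ltf 3.21 and 65.3 CPM. Neither granule list went one way, since Ctsc averaged 1923 CPM at rest and 10573 CPM under inflammation, and Chil3 18158 and 7508 CPM. These values are side by side without a test.

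Other lineages were compared as a check of what else moved with the granulocytic genes, and their part in the results was not tested. Over all genes tested, 13.2% were upregulated and 14.6% downregulated, and the counts of these and the following lists stand beside those shares. Monocyte core genes took 0.867 to 1.23% of reads in CCR1-labelled and 7.27 to 7.67% in CCR1/2+ve libraries. Of 10 monocyte and dendritic fate factors, 9 were downregulated and Id2 was upregulated. Of 8 MHC class II genes 7 were downregulated and 0 upregulated, and of 11 dendritic cell genes tested 7 and 0. Of 25 antiviral genes, which respond to type I interferon such as the IFN-α infused, 23 were downregulated and 0 upregulated, with a median log2 fold change of −3.20. The interferon-response motif ISRE (2 copies of GAAA, 2 bases apart, on either strand) was in 11 of 17 antiviral promoters (64.7%), against 3.49% of all promoters. It was in 1 of 39 promoters of upregulated granulocytic genes (2.56%) and in 2 of 20 of downregulated ones (10%).

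**Figure D5:**
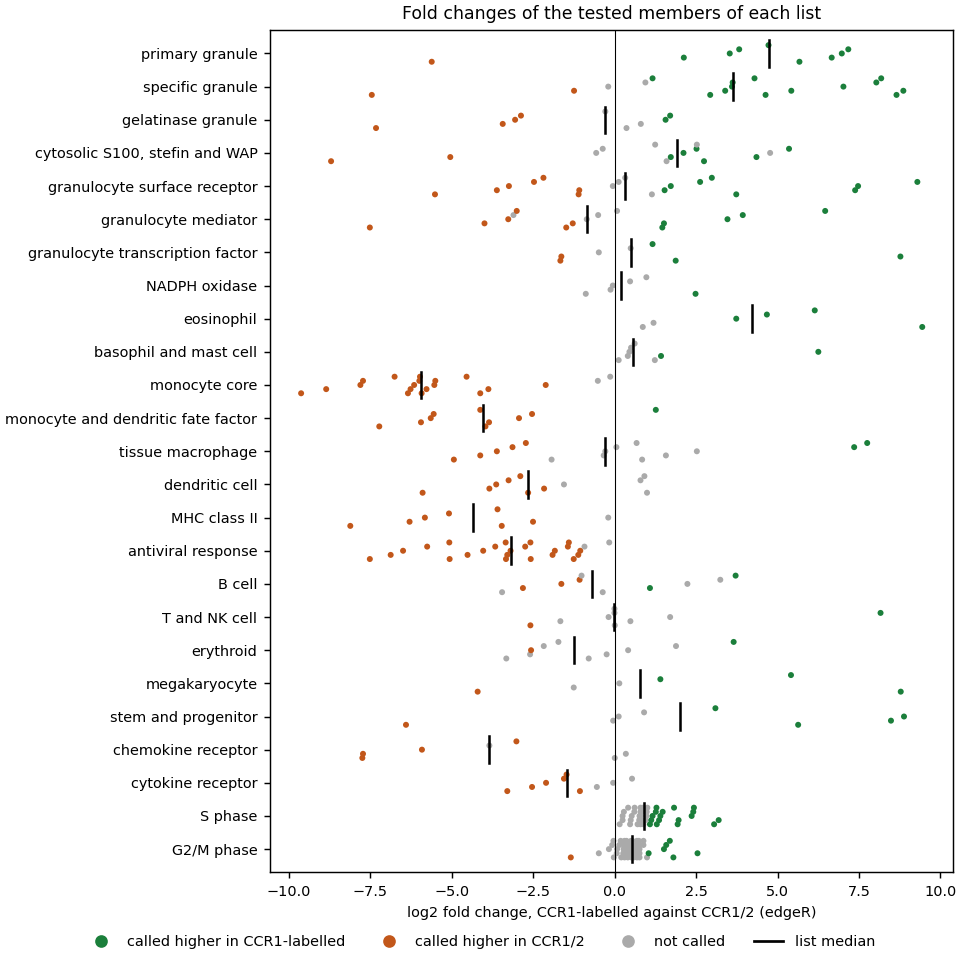
Log2 fold change (CCR1-labelled against CCR1/2+ve, edgeR) of every tested gene of the 8 granulocytic and 17 other lists, 1 point per gene, coloured by call, with the list median as a black bar. The primary and specific granule medians are 4.72 and 3.62, and those of the monocyte core and MHC class II are −5.96 and −4.34.

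Eosinophil genes were also higher in CCR1-labelled cells, 4 of 6 tested and 0 downregulated. Their summed level was 40.8 to 91.7 CPM against 2.85 to 3.64 CPM. Prg2, eosinophil major basic protein, measured 12.1, 52.1, 21.5 and 40.0 CPM against 0.679, 0.150 and 0.483 CPM, and Siglecf, the antigen that the gate excludes, 25.3, 25.1, 28.5 and 26.0 CPM against 2.13, 1.85 and 1.93 CPM. Of 8 basophil and mast cell genes tested 2 were upregulated, Hdc and Ms4a2. Hdc, which makes histamine, measured 719, 687, 784 and 688 CPM against 9.02, 9.65 and 9.70 CPM. The basophil protease gene Prss34 averaged 185 against 142 CPM and was not called.

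Of 8 stem and progenitor genes tested, 4 were upregulated and 1 downregulated. The downregulated gene was Meis1, a homeobox factor, at 0.0910 against 8.30 CPM (log2 fold change −6.41, adjusted p = 4.74e-08). Kit, the stem cell factor receptor, measured 132, 155, 182 and 172 CPM against 0.436, 0.450 and 0.439 CPM. Myb, a factor of proliferating progenitors, measured 99.1, 87.4, 88.9 and 89.8 CPM against 1.45, 2.45 and 1.62 CPM, while Cd34 was 1.96 against 1.04 CPM and not called. Of 42 S phase genes tested 17 were upregulated and 0 downregulated (median log2 fold change 0.91), and of 52 G2/M genes 6 and 1 (median 0.52). The upregulated share was 40.5% for S phase, but 11.5% for G2/M and 11.1% for T and NK cell genes, under the 13.2% of all genes. Of 9 T and NK cell genes 1 was upregulated, Nkg7, a granule protein of cytotoxic cells, at 1707, 1537, 1644 and 1360 CPM against 6.25, 5.10 and 5.09 CPM. Another, the granzyme gene Gzma, was downregulated, at 0.229 against 1.41 CPM (log2 fold change −2.59, adjusted p = 0.00102). Ncr1, the defining receptor of NK cells, had no read in the 7 libraries. The summed level of the 7 megakaryocyte genes was 4.44 to 5.28 CPM against 1.4 to 1.60 CPM.

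The 5 upregulated genes of smallest p over all genes tested were Nkg7, Hdc, Tuba8, Cd63 and Itgb2l. Cd63, a tetraspanin of primary granule membranes, averaged 2093 ± 112 CPM (SD, n = 4) against 9.49 ± 1.91 CPM (SD, n = 3). The 5 downregulated were Ms4a6b, Adgre1, Slfn1, Rnd3 and Sirpb1c. Adgre1, which encodes the macrophage antigen F4/80, averaged 19.1 ± 0.927 CPM (SD, n = 4) against 586 ± 18.2 CPM (SD, n = 3). The tissue macrophage list that holds Adgre1 did not go one way. Of its 15 genes, 5 were downregulated, 2 were upregulated and 8 were not called.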

How the data were processed

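Bulk RNA-seq of bone marrow cells sorted from REP mice was analysed for the inflamed CCR1-labelled (4 libraries) and inflamed CCR1/2 (3 libraries) groups, taken from the sample titles. Reads were quality-checked by the authors in fastp. STAR 2.7.10a was then run against GRCm38, and alignments were kept if unique and matched over 35 bases or more. The authors deposited raw read counts for 50854 genes of Ensembl release 91. The strand counted is not given in the sources used here. The table has 20 columns, and 1 column, named as replicate 1 of inflamed CCR1/2, matches no sample and was not used. Genes of chromosome 14 were not analysed here. Values of some further genes are not reported here, though the counts over lists include them.

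A filter of 1 read per library on average, over all 19, left 18652 genes, which were tested with edgeR 4.0.16 in R 4.3.3 on the 7 libraries (two-sided quasi-likelihood test with TMM factors and robust dispersion, p-values adjusted by Benjamini-Hochberg over these genes), and called where the adjusted p was under 0.05 and the log2 fold change 1 or more in either direction. Positive log2 fold changes are higher in CCR1-labelled cells. Levels in CPM use TMM factors of all 19 libraries, each standard error (SE) is derived from the fold change and its F statistic, and 95% intervals of it treat that error as normal. An exact permutation test of 4 against 3 libraries cannot go below p = 0.0571 and was not used. Intervals and floors from counts cover counting error only. Depth over the 7 libraries was 22268658 to 24444993 reads on genes, so that 3 reads in all libraries of a group correspond to 0.138 CPM (CCR1-labelled) and 0.142 CPM (CCR1/2).

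The genes, lists and level thresholds were chosen with earlier results of these data known. Genes were chosen to be named as Ccr1 and Ccr2, up to 4 upregulated, 3 downregulated and 1 uncalled gene of each granulocytic list, up to 3 called genes and the most abundant gene of each other list, and the 5 genes of smallest p in each direction. Some of these are given as means, and many genes of the other lists enter only the counts of their list. Further members were named by class, with Elane, Ltf, Camp and some others given in full after their values were seen. The S and G2/M lists are those of Seurat 5.3.0, gene positions and exon overlaps are from GENCODE M21, and promoters are from RefSeq (GRCm38.p6). Alternatives were DESeq2 1.42.0, RLE factors, library totals, other filters, all 19 libraries in one fit, a replicate block, no fold cutoff, other level thresholds and each library left out in turn. Within each of the 2 groups, no pair of libraries agreed within sampling noise.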

Additional observations from a re-analysis of the deposited data

Results flagged for a closer look

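In the 4 CCR1-labelled libraries, 185 values were examined for 1 library far from the others, and for 15 the gap of the outermost library to its nearest neighbour took a larger share of the group's range than Dixon's 95% critical value. For normally distributed values, chance alone gives this in about 1 of 20 groups. Where only 1 library had any read, the gap takes the whole range whatever the value. The flags of Ppbp, Hcar2, Ptgs2 and Cmklr1 are of this kind and were fixed in advance. Replicate 4 was low for Elane (22051 CPM, others 25505 to 26200 CPM) and high for Lcn2 (1770 CPM, others 1254 to 1327 CPM). It was also high for 4 genes of the stefin cluster, Stfa1 (39.7 CPM, others 3.88 to 9.65 CPM), BC100530 (12.0 CPM, others 0.637 to 1.02 CPM), Gm5483 (1.13 CPM, others 0 to 0.0452 CPM) and Stfa2l1 (1.04 CPM, others 0.0904 to 0.136 CPM). Reads that match several of these near-identical genes were not counted, so their levels are uncertain. Replicate 4 alone had any read of Ppbp, a platelet chemokine gene (0.0471 CPM).

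Replicate 2 was low for Fpr1 (0.136 CPM, others 0.612 to 0.682 CPM) and for Alox5ap (296 CPM, others 312 to 313 CPM). It alone had reads of Hcar2 (0.136 CPM, 3 reads), of Ptgs2 (0.0452 CPM, 1 read) and of Cmklr1, a chemerin receptor gene (0.0452 CPM). Replicate 3 was high for H2-DMa, which helps load MHC class II molecules (39.8 CPM, others 31.5 to 31.8 CPM). Replicate 1 was low for the interferon regulator gene Irf7 (19.3 CPM, others 27.3 to 28.6 CPM) and for the summed level of the antiviral list (813 CPM, others 1000 to 1038 CPM). The groups did not overlap for any of these except Stfa1, Stfa2l1 and Gm5483.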

How the results depend on the processing

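Without the fold cutoff 3771 genes were upregulated and 4290 downregulated, against 2454 and 2718 with it. Leaving out each library in turn gave 2140 to 2521 upregulated and 2444 to 2710 downregulated genes, 46 to 47 upregulated and 23 to 25 downregulated granulocytic genes, 52 shared and 4 to 5 lacked. At 5 and 0.5 CPM in place of 10 and 1 CPM, 58 granulocytic genes were shared and 3 lacked, and at 20 and 2 CPM 46 and 3. Over 159 named genes, 2173 of 2216 alternative values kept the call and the direction, 20 lost the call, 13 gained it and 10 changed sign. Those that changed sign were genes not called, over the left-out libraries: Stfa2l1 (log2 fold change −0.35 to 3.50), Stfa3 (−1.04 to 1.14), Gm5483 (−2.21 to 5.66), Fcgr4 (−0.20 to 0.23), Il1f9 (−0.11 to 0.38), Cxcl2 (−0.93 to 0.23) and Cybb (−0.14 to 0.02). Whether replicate numbers pair the samples is not stated. Same-numbered libraries had correlations of −0.0254, 0.109 and −0.271 of their deviations from the group means over 8665 genes. These are too few to show whether the samples are paired. With the replicate block 2009 genes were upregulated and 2327 downregulated, 46 and 22 of them granulocytic. Junb, Il1b and Cxcr2 were among those not called with it, and BC100530 was called. The gate of the CCR1-labelled cells is not known, with 3 libraries on one side the spread of CCR1/2+ve levels rests on few values, and genes under 1 CPM are limited by depth.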
